A study of Rattus norvegicus with 16 samples.

Results

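The methionine cycle and transsulfuration genes were followed across 4 groups of rat hepatoma H35 cells in which *Pdrg1*, the gene of a nuclear and cytoplasmic protein that binds the enzyme encoded by *Mat1a*, was silenced or left at its own level. The genes were taken by the gene name printed on the array, namely *Mat1a*, *Mat2a*, *Mat2b*, *Ahcy*, *Gnmt*, *Bhmt*, *Cbs*, *Cth* and *Mtr*, and not by any measured value. They made up 9 of the 26269 gene names and 12 of the 30367 gene probes. *Mat2a*, *Mat2b* and *Cbs* had 2 probes each and the others 1, and every probe was spotted once per array.

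H35 is an established rat hepatoma line, and all groups received SureSilencing plasmids with Lipofectamine and were selected in 1.8 mg/ml G418, the antibiotic to which the plasmid confers resistance. CN-10 was a stable clone with a negative control hairpin, 4-18 a stable clone with shRNA4 against *Pdrg1*, 3-44 a stable clone with shRNA3, and shRNA3T a pool of cells transfected with shRNA3. The 3 stable clones were selected further in 4 mg/ml G418, a step the pool did not have, and clones were kept when their behavior by RT-qPCR was reproducible. Each hairpin was represented by 1 stable clone, and the pool had no control pool, so hairpin, clone and length of selection cannot be told apart. Each group had 4 arrays labelled as biological replicates, and the p-values measure the spread between these samples. The 4 arrays of a group shared a slide that held no other group, and an effect of the slide therefore cannot be told apart from one of the group.

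Methionine adenosyltransferases (MATs) make S-adenosylmethionine (AdoMet), the main methyl donor of the cell, from methionine and ATP. Transfer of the methyl group leaves S-adenosylhomocysteine, which is hydrolyzed to homocysteine. Homocysteine is either methylated back to methionine or drawn into transsulfuration, the route to cysteine, and normal liver is known for running the whole set of reactions.

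The probe sequences are given for the MAT subunits, *Ahcy* and *Cth*, because the differences below rest on them and because the probe pairs of *Mat2a* and *Mat2b* did not move alike. They are written 5′ to 3′ as on the array. All 60 bases are given for the 3 probes that start earliest in their annotated transcripts and have a reading frame without a stop codon, and the last 30 bases for the others. Capitals mark the letters AATAAA, the common polyadenylation signal.
Mat1a A_64_P046248, last 30 bases: acttaagctttatctaAATAAAaatccaga
Mat2a A_64_P027404, last 30 bases: tggcgtaggttacagagaagccttcaagct
Mat2a A_43_P15601, whole probe: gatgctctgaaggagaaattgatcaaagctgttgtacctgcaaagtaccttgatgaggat
Mat2b A_64_P133430, last 30 bases: gccttgtaagtcttttgaccacttctcaat
Mat2b A_44_P917564, whole probe: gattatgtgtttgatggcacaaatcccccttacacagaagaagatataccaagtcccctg
Ahcy A_43_P15271, last 30 bases: gctacttttggtccctatttcacaagggtt
Cth A_44_P512874, whole probe: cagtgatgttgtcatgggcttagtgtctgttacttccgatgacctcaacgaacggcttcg
AATAAA was searched for on both strands of the 12 probes, and the *Mat1a* probe was the only one to hold it, on its own strand. It was present in 8.39% of the 30367 gene probes on the printed strand and in 2.86% on the other.

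In the rat assembly of the array design (rn4), the *Mat1a* probe lay at chr16:17563912-17563971 on the plus strand. The *Mat2a* probe A_64_P027404 lay at chr4:105739956-105740015 and A_43_P15601 at chr4:105740819-105740878, both on the minus strand, starting at base 1264 and base 734 of the annotated transcript. The array annotation also paired A_43_P15601 with a second, predicted transcript, so its signal may not come from *Mat2a* alone. The *Mat2b* probe A_64_P133430 lay at chr10:25713158-25713217 and A_44_P917564 at chr10:25718256-25718315, both on the minus strand, starting at base 1705 and base 488. The *Ahcy* probe lay at chr3:145545033-145545091 and the *Cth* probe at chr2:256069319-256069378, both on the minus strand. Exon and UTR borders of that assembly were not analysed here.

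Values are normalized log2 intensities, in which a difference of 1 is a 2-fold change, and intensities were not compared between probes. A gene was called changed when its brightest probe had a limma p-value under 0.05 after Benjamini-Hochberg adjustment over all gene probes, and calls that were also at least 2-fold are given separately. A probe is described as well above background where the scanner software marked it so. The raw 75th percentile of the gene spots was 1614 to 1946 on the 4-18 arrays and 2328 to 3692 on the other 12 arrays, and the share of gene spots well above background was 53.1% to 64.1% against 64.7% to 74.3%. No gene spot was saturated. All 10 hepatocyte lineage markers were well above background on every array of CN-10, 3-44 and shRNA3T, and 8 of 10 on every array of 4-18. Of 4 biliary markers, *Sox9* was well above background on 15 arrays and *Epcam* on none of the 16. *Krt19* was so on the 4 CN-10 arrays alone, and *Krt7* on 2 arrays of 3-44 alone. Of 5 markers of stellate cells and fibroblasts, *Col1a1* was so on all 16 arrays and *Col1a2* and *Des* on 15. *Col3a1* was so on 3 arrays of CN-10, 2 of 3-44 and 2 of shRNA3T, and *Pdgfrb* on 1 array of 3-44. Of 4 macrophage markers, *Csf1r* and *Cd68* were on 15 and *Cd163* and *Ptprc* on none. Of 4 endothelial markers, *Cdh5* was on all 16, *Kdr* on 3 arrays of CN-10 and 3 of shRNA3T, and *Pecam1* and *Tek* on none. *Des* was lower than in CN-10 in all silenced groups, with log2 differences of -1.17 (4-18), -0.81 (3-44) and -0.98 (shRNA3T) that passed the limma test (highest adjusted p = 0.00358). *Krt19* also passed as lower in all of them, and no size is given because its probe was not well above background there. *Col1a1* was higher in shRNA3T (0.52, adjusted p = 0.0338) and *Cd68* lower in 4-18 (-0.43, adjusted p = 0.0142). The part of these markers in the results below was not tested. Each array measured the RNA of a whole culture, so fewer expressing cells and less RNA per cell cannot be told apart.

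*Pdrg1*, the target of the hairpins, had log2 intensities of 13.41, 13.88, 13.51 and 13.77 on the CN-10 arrays (probe A_43_P11144). They were 11.57, 13.33, 13.34 and 13.25 in 4-18, 11.89, 12.86, 12.90 and 12.95 in 3-44, and 12.39, 12.90, 12.97 and 12.90 in shRNA3T. Every silenced array lay below every CN-10 array. *Pdrg1* was lower than in CN-10 by a log2 difference of -0.77 (4-18), -0.99 (3-44) and -0.85 (shRNA3T), each with a standard error of 0.34 and an adjusted p by limma over 0.05 (0.129, 0.105 and 0.143). The 4-18 value rested largely on replicate 1, without which the difference was -0.33 (adjusted p = 0.349). Leaving out that array also brought *Pdrg1* past the threshold in 3-44 and shRNA3T (adjusted p = 0.0086 and 0.0149), with the differences as above. Over the 30 alternatives, *Pdrg1* was called lower in 5 for 4-18, 5 for 3-44 and 6 for shRNA3T. Among them, leaving out replicate 1 of every group gave -0.41, -0.82 and -0.79 (adjusted p = 0.00647, 3.06e-04 and 2.12e-04).

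At most 3 of the 9 genes changed against CN-10 in any silenced group, and no gene was called in more than 1 of them. In 4-18, *Mat2a* rose and *Ahcy* fell against CN-10. In 3-44 limma called 0 of the 9 genes. In shRNA3T, *Mat1a* and *Mat2b* rose at least 2-fold and *Cth* fell.

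These counts stand against the share of all genes called by the same rule. In 4-18, 1 of 9 members was higher and 1 lower, where 11.6% of all genes were higher and 12.4% lower, and 0 were called at 2-fold or more, where 6.15% of all genes were. In 3-44, the 0 higher and 0 lower members compare with 3.45% and 4.69% of all genes, and 1.47% of all genes were called at 2-fold or more. In shRNA3T, 2 of 9 were higher and 1 lower, where 5.13% and 7.04% of all genes were, and 2 were called at 2-fold or more, where 2.39% of all genes were. The 9 genes had a median log2 fold change of 0.09 (4-18), -0.04 (3-44) and -0.03 (shRNA3T), beside 0.00, -0.01 and -0.01 for all genes.

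**Figure D1:**
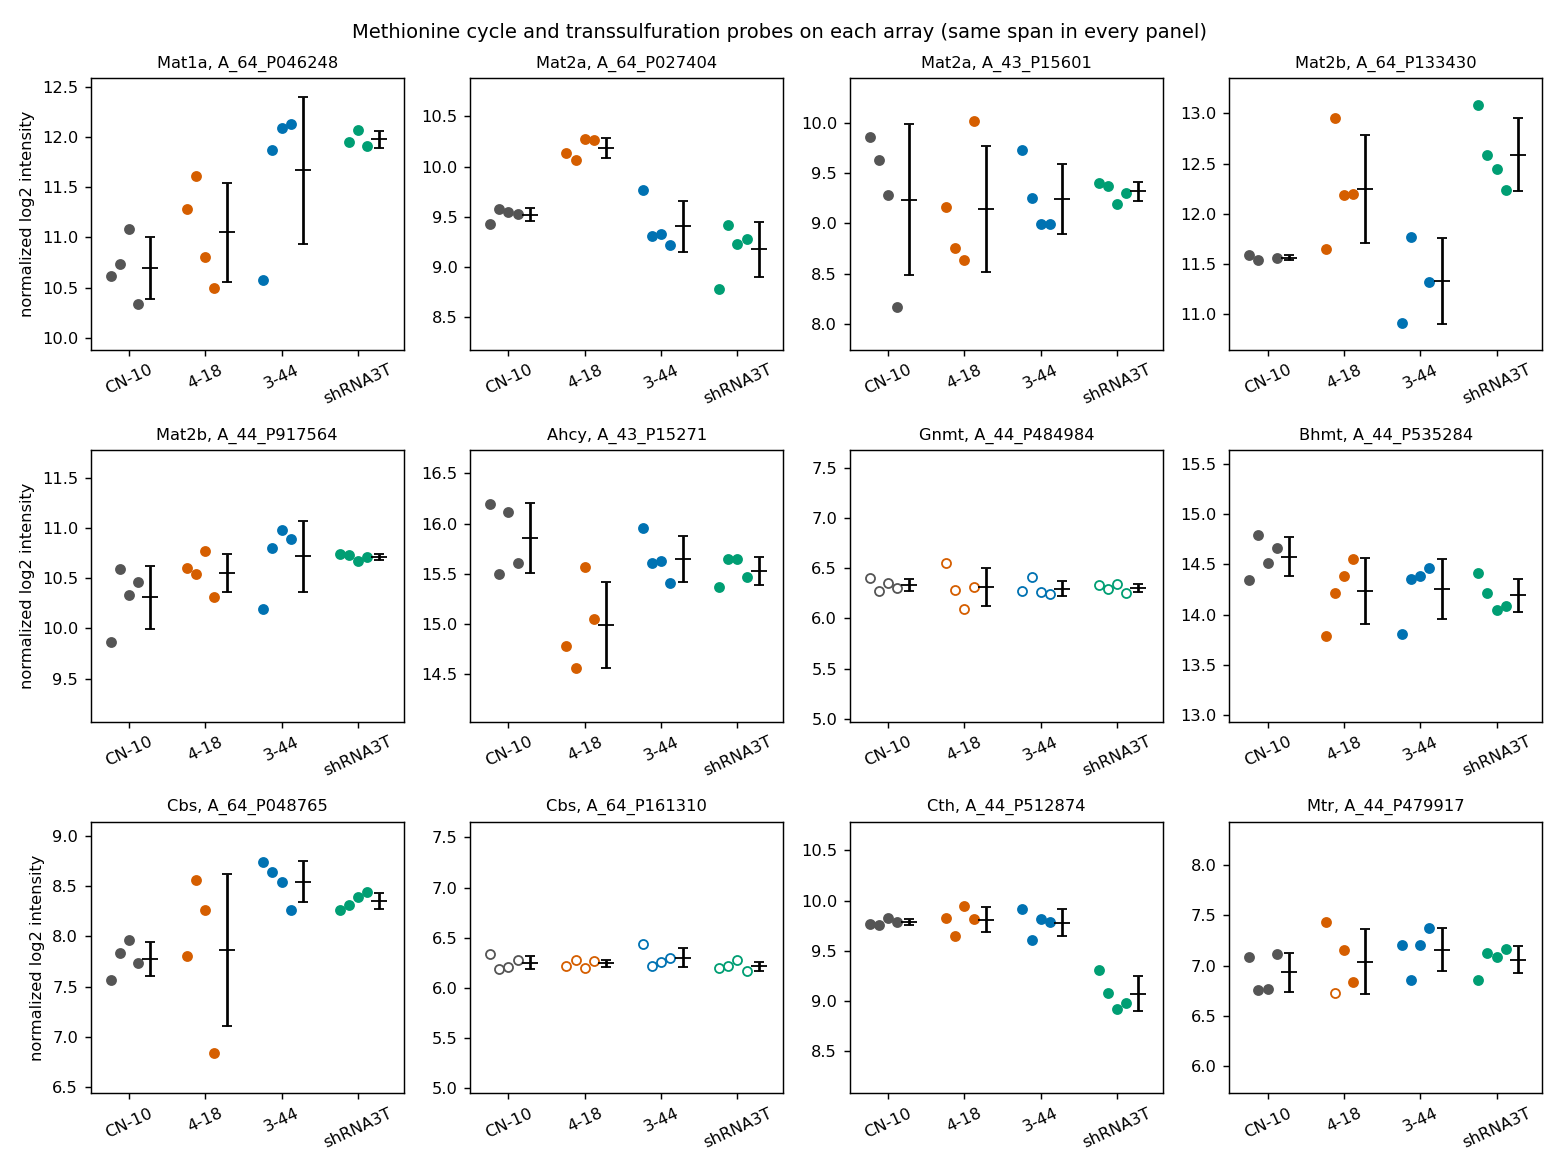
Normalized log2 intensity (y axis) of the 12 probes on each array of the 4 groups (x axis), with the mean and SD of each group in black and open circles where the probe was not well above background. The Cth probe sat between 8.92 and 9.31 on the 4 shRNA3T arrays and between 9.60 and 9.94 on the other 12, while the Gnmt probe and the second Cbs probe were open on all 16 arrays.

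*Mat1a* encodes MATα1, the catalytic subunit of the liver isoenzymes MAT I and MAT III. Its log2 intensity was 10.62, 10.73, 11.08 and 10.34 on the CN-10 arrays and 11.28, 11.61, 10.81 and 10.50 in 4-18. It was 10.58, 11.87, 12.09 and 12.13 in 3-44, and 11.95, 12.07 and 11.91 on replicates 2 to 4 of shRNA3T. The scanner software had set an outlier mark on the spot of shRNA3T replicate 1, which was not used. All 3 shRNA3T values and 3 of 4 values in 3-44 lay above every CN-10 value, whereas replicate 1 of 3-44 lay among the CN-10 arrays and the 4-18 arrays overlapped with them. The groups ordered as CN-10, 4-18, 3-44 and shRNA3T by their means (10.69, 11.05, 11.67 and 11.97). No step between neighbors in that order passed the test (adjusted p by limma = 0.483, 0.191 and 0.67). The order did not hold throughout, and over the 30 alternatives 4-18 went down to -0.30 against CN-10. Without replicate 1 of 3-44, shRNA3T stood at -0.05 against 3-44, and 4-18 was called lower than 3-44 (-0.98). The step from 4-18 to 3-44 was called in 4 of 30 alternatives.

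Against CN-10, *Mat1a* was 2.43-fold higher in shRNA3T (log2 fold change 1.28, standard error 0.34, adjusted p by limma = 0.0238). For 3-44 it differed from CN-10 by 0.97 and for 4-18 by 0.36, with a standard error of 0.31 each (adjusted p = 0.0817 and 0.483). The exact permutation test of the difference in means, two-sided, gave p = 0.0286 for shRNA3T, the smallest that 4 against 3 arrays allow, and p = 0.114 for 3-44. The shRNA3T call was lost with the outlier spot kept (log2 fold change 1.05, adjusted p = 0.0579), with 75th percentile scaling (adjusted p = 0.0575), without scaling between arrays (adjusted p = 0.127), and without any one of CN-10 replicates 1, 2 and 4 or shRNA3T replicates 2, 3 and 4 (adjusted p = 0.0525 to 0.0796). It was also lost in the deposited values and with the replicate number as a block, and it held in 19 of 30 alternatives. In 3-44, leaving out replicate 1 alone gave a log2 fold change of 1.34 and an adjusted p of 0.0029.

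*Mat2a* encodes MATα2, the catalytic subunit of MAT II, the isoenzyme of fetal liver, of tissues outside the liver and of many hepatomas. Its probe A_64_P027404 gave 9.43, 9.58, 9.55 and 9.53 on the CN-10 arrays and 10.14, 10.06, 10.27 and 10.26 in 4-18. It gave 9.77, 9.30, 9.32 and 9.21 in 3-44, and 8.78, 9.41, 9.23 and 9.28 in shRNA3T. The 4-18 arrays lay above all 12 others, and the shRNA3T arrays lay below the CN-10 arrays, while 3-44 and CN-10 overlapped.

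*Mat2a* was 1.58-fold higher in 4-18 than in CN-10 by this probe (log2 fold change 0.66, standard error 0.13, adjusted p by limma = 0.00189). By the same probe 3-44 differed from CN-10 by -0.12 and shRNA3T by -0.34 (adjusted p = 0.71 and 0.123). The values of 4-18 were also above those of 3-44 (0.78, adjusted p = 5.67e-04) and 2.01-fold above those of shRNA3T (1.01, adjusted p = 6.86e-05). Without scaling between arrays the 4-18 value against CN-10 was 0.04 (adjusted p = 0.905), in a setting where the median of all probes stood at 0.15. The raw 75th percentile of the gene spots was lower in 4-18 (1614 to 1946) than in CN-10 (2617 to 3512). The median therefore does not give the shift between the groups at every intensity.

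The second *Mat2a* probe, A_43_P15601, ranged from 8.16 to 9.86 in CN-10, 8.64 to 10.02 in 4-18, 8.99 to 9.73 in 3-44 and 9.20 to 9.40 in shRNA3T, so all groups overlapped. In 4-18 its log2 fold change was -0.09, with a 95% confidence interval of -0.81 to 0.63 that ends just under the 0.66 of the first probe. The mean over both probes gave 0.29 in 4-18 (adjusted p by limma = 0.336), so the *Mat2a* call rested on 1 probe of 2.

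*Mat2b* encodes MATβ, the regulatory subunit of MAT II. Its probe A_64_P133430 gave 11.59, 11.54 and 11.56 on CN-10 replicates 1, 2 and 4 and 11.65, 12.96, 12.19 and 12.20 in 4-18. It gave 10.91, 11.77 and 11.32 on replicates 1, 2 and 4 of 3-44, and 13.09, 12.59, 12.45 and 12.24 in shRNA3T. The replicate 3 spots of CN-10 and 3-44 carried the outlier mark and were not used. Every array of 4-18 and shRNA3T lay above the 3 CN-10 arrays, and those of 3-44 lay on both sides of them.

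*Mat2b* was 2.04-fold higher in shRNA3T than in CN-10 (log2 fold change 1.03, standard error 0.28, adjusted p by limma = 0.0296). It differed from CN-10 by 0.69 in 4-18 and by -0.23 in 3-44 (adjusted p = 0.0984 and 0.757). The 4-18 value was called in 3 of 30 alternatives, and it was 0.89 without replicate 1 of 4-18 (adjusted p = 0.0315) and 0.45 without its replicate 2 (adjusted p = 0.221). The 3-44 value was -0.02 without replicate 1 of 3-44 and -0.45 without its replicate 2, and was called in 0 of 30. With the processed signal of the scanner software and 75th percentile scaling, the shRNA3T value was 0.53 (adjusted p = 0.258). The call was also lost with 75th percentile scaling alone (adjusted p = 0.1), without scaling between arrays (adjusted p = 0.251), in the deposited values, and without any one of CN-10 replicates 1, 2 and 4 or shRNA3T replicates 1, 2 and 3 (adjusted p = 0.0511 to 0.0882). Only 3 arrays of CN-10 and of 3-44 entered these values.

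The second *Mat2b* probe, A_44_P917564, lay from 9.87 to 10.59 in CN-10, 10.31 to 10.77 in 4-18, 10.20 to 10.98 in 3-44 and 10.67 to 10.74 in shRNA3T. The shRNA3T arrays were above all CN-10 arrays, and the other groups overlapped with CN-10. It stood above CN-10 by 0.24 (4-18), 0.41 (3-44) and 0.40 (shRNA3T), differences that did not pass the test (adjusted p by limma = 0.356, 0.195 and 0.169). Both probes were thus higher in shRNA3T, by different amounts, whereas for 3-44 they lay on opposite sides of 0. Averaged over both probes, *Mat2b* was higher by 0.72 in shRNA3T (adjusted p = 0.022) and by 0.47 in 4-18 (adjusted p = 0.089). Over the 30 alternatives the second probe passed the threshold in 1 for 4-18, 3 for 3-44 and 0 for shRNA3T. Its 4-18 value ran from -0.39 to 0.72, and it passed with the processed signal and 75th percentile scaling (0.72, adjusted p = 0.0169).

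**Figure D2:**
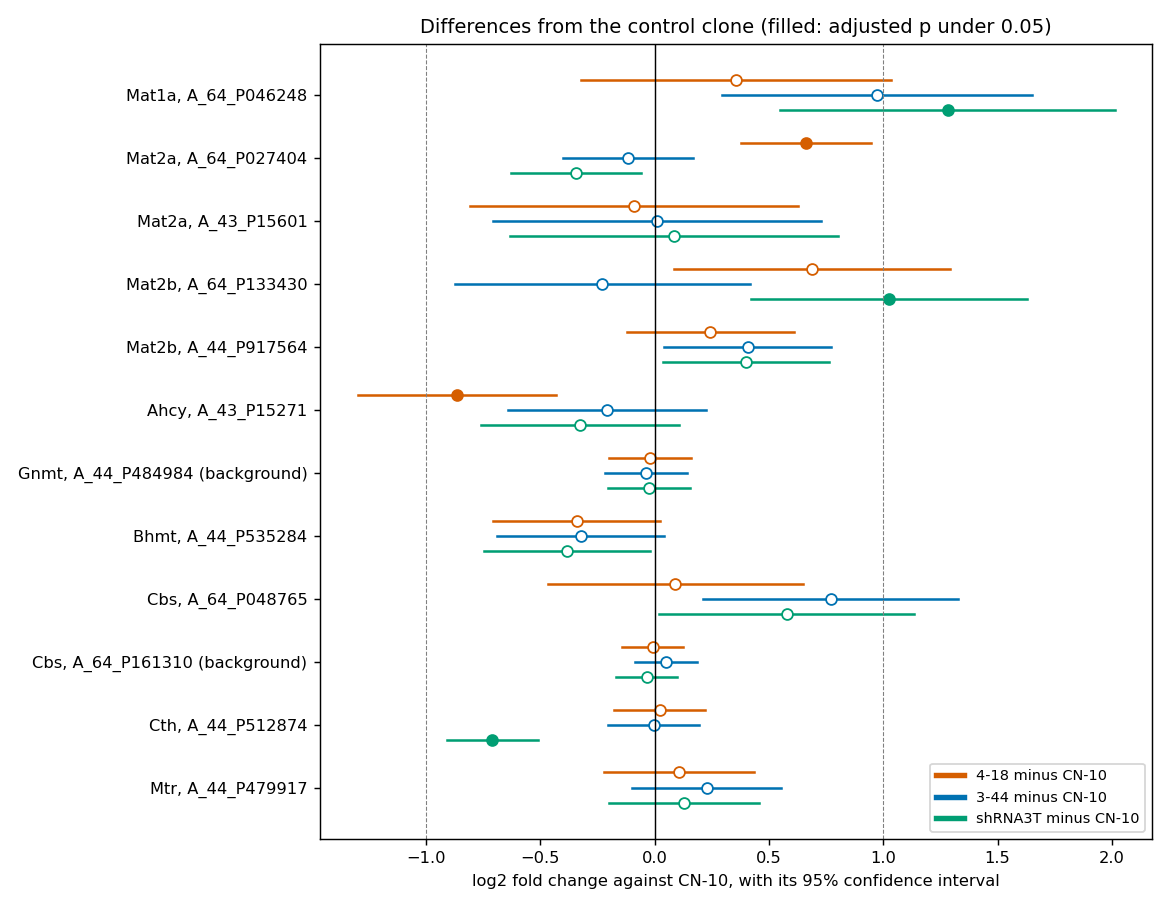
Log2 fold change against CN-10 (x axis) of the 12 probes (y axis) in 4-18, 3-44 and shRNA3T, with 95% confidence intervals from limma, filled circles where the adjusted p is under 0.05 and dashed lines at 2-fold. Filled circles stand at 0.66 for Mat2a and -0.87 for Ahcy in 4-18, and at 1.28 for Mat1a, 1.03 for Mat2b and -0.71 for Cth in shRNA3T.

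*Gnmt* encodes glycine N-methyltransferase, which uses AdoMet to methylate glycine and is abundant in normal liver. On none of the 16 arrays did its probe stand well above background, and the group means lay between 6.29 and 6.33. A change in *Gnmt* was therefore not detectable at this signal.

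*Ahcy* encodes S-adenosylhomocysteine hydrolase, which removes the product inhibitor of methyltransferases. Its log2 intensity was 16.20, 15.50, 16.12 and 15.61 in CN-10 and 14.79, 14.56, 15.56 and 15.05 in 4-18. It was 15.95, 15.61, 15.63 and 15.41 in 3-44, and 15.37, 15.64, 15.65 and 15.46 in shRNA3T. The lowest 3 values of all 16 arrays came from 4-18, and its replicate 3 fell between 2 CN-10 arrays, so the groups overlapped.

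*Ahcy* was 1.82-fold lower in 4-18 than in CN-10 (log2 fold change -0.87, standard error 0.20, adjusted p by limma = 0.00558). The exact permutation test gave p = 0.0571. With the processed signal and 75th percentile scaling, the difference in 4-18 was -0.41 (adjusted p = 0.0513), and without scaling between arrays it was -1.51 (adjusted p = 0.00122). Leaving out replicate 1 of every group together gave -0.68 (adjusted p = 0.0504). Clone 3-44 differed from CN-10 by -0.21 and the pool by -0.33, and neither was called (adjusted p = 0.652 and 0.393).

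*Bhmt* encodes betaine-homocysteine methyltransferase, which remethylates homocysteine with betaine in liver and kidney. Its log2 intensity was 14.34, 14.79, 14.52 and 14.66 in CN-10 and 13.78, 14.21, 14.38 and 14.55 in 4-18. It was 13.81, 14.35, 14.38 and 14.46 in 3-44, and 14.42, 14.22, 14.05 and 14.08 in shRNA3T. Each silenced group overlapped with CN-10 and had the lower mean, with differences of -0.34 (4-18), -0.32 (3-44) and -0.38 (shRNA3T), a standard error of 0.17 and no call by limma (adjusted p = 0.176, 0.329 and 0.19). *Bhmt* was called lower in 4-18 without scaling between arrays and in the deposited values (to -1.08, adjusted p = 0.0119), and in shRNA3T under 3 of 30 alternatives. Without replicate 1 of 4-18 the difference of that group was -0.19, and without replicate 1 of 3-44 that of 3-44 was -0.18 (adjusted p = 0.451 and 0.619). These 3 differences share the same CN-10 arrays.

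*Mtr* encodes methionine synthase, the folate-dependent enzyme that remethylates homocysteine in most tissues. Its probe was dim, with values from 6.75 to 7.11 in CN-10 and from 6.72 to 7.43 over the silenced arrays, and it was not well above background on replicate 2 of 4-18. The groups overlapped, and the silenced groups differed from CN-10 by 0.11 (4-18), 0.23 (3-44) and 0.13 (shRNA3T), with a standard error of 0.15 each. The 95% confidence intervals reached from -0.22 to 0.55 over the 3 groups. Over the 30 alternatives the 4-18 value ran from -0.91 to 1.00. It was called in 1 of them, 75th percentile scaling (adjusted p by limma = 0.0306), where the median of all probes stood at 0.86.

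*Cbs* encodes cystathionine β-synthase, which commits homocysteine to transsulfuration. Its probe A_64_P048765 (chr20:10047648-10047707, minus strand) gave 7.57, 7.83, 7.97 and 7.73 in CN-10 and 7.80, 8.56, 8.26 and 6.83 in 4-18. It gave 8.74, 8.64, 8.54 and 8.26 in 3-44, and 8.26, 8.31, 8.40 and 8.44 in shRNA3T. All 8 arrays of 3-44 and shRNA3T, which carry the same hairpin, lay above all 4 CN-10 arrays, and the 4-18 arrays spread to both sides.

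*Cbs* differed from CN-10 by 0.77 in 3-44 and by 0.58 in shRNA3T on the log2 scale, with a standard error of 0.26 each, and neither was called by limma (adjusted p = 0.0947 and 0.198). The exact permutation test gave p = 0.0286 for each, the smallest that 4 against 4 arrays allow, before any adjustment for the number of genes. With only the 2 groups compared in the fit, which leaves out the widely spread 4-18 arrays, the adjusted p was 0.00739 in 3-44 and 0.00343 in shRNA3T. Without replicate 4 of 4-18 alone, the array at 6.83, it was 0.00464 and 0.018, and without replicate 2 of 4-18 it was 0.0467 and 0.116. Cyclic loess in place of quantile normalization gave 0.00205 and 0.00629. Over the 30 alternatives *Cbs* was called in 5 for 3-44 and in 4 for shRNA3T. In 4-18 it differed from CN-10 by 0.09 (adjusted p = 0.856). That value was called in 1 of 30 alternatives, 75th percentile scaling (0.78, adjusted p = 0.0188), where the median of all probes stood at 0.86. The second *Cbs* probe, A_64_P161310, stood well above background on none of the 16 arrays.

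*Cth* encodes cystathionine γ-lyase, which completes transsulfuration by releasing cysteine. Its log2 intensity was 9.77, 9.76, 9.82 and 9.79 in CN-10, 9.83, 9.64, 9.94 and 9.82 in 4-18, and 9.92, 9.60, 9.82 and 9.79 in 3-44. It was 9.31, 9.08, 8.92 and 8.98 in shRNA3T. The 4 shRNA3T arrays lay below all 12 arrays of the stable clones, among which the 3 clones overlapped.

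*Cth* was 1.64-fold lower in shRNA3T than in CN-10 (log2 fold change -0.71, standard error 0.09, adjusted p by limma = 1.16e-04). In the clones the 95% confidence interval of the difference from CN-10 was -0.18 to 0.22 for 4-18 and -0.20 to 0.19 for 3-44. The shRNA3T call was made without every one of the 16 arrays in turn, and it was lost only where arrays were not scaled to each other (-0.70, adjusted p = 0.178, and -0.71, adjusted p = 0.169, in the deposited values).

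The differences between silenced groups were tested directly in the same fit, where the spread comes from all 16 arrays. Between the 2 stable clones, 3 of 9 genes differed, where 22.5% of all genes did. In 4-18, *Mat2a* (log2 difference 0.78) and *Mat2b* (0.92, adjusted p by limma = 0.0317) were higher than in 3-44, and *Ahcy* was lower (-0.66, adjusted p = 0.0302). With only those 2 groups in the fit, 1 of 9 was called (*Mat2a*). The *Mat2a* and *Mat2b* values are those of the brighter probe. The second *Mat2a* probe gave -0.10 (adjusted p = 0.871) and the second *Mat2b* probe -0.16 (adjusted p = 0.546), and neither gene was called with the mean over its probes (0.34, adjusted p = 0.244, and 0.42, adjusted p = 0.132). *Mat2b* also lost its call without 3-44 replicate 1 or 4 or 4-18 replicate 2 or 3 (adjusted p = 0.0527 to 0.126). *Ahcy* lost its call without 3-44 replicate 1, 2 or 3 or 4-18 replicate 1 or 2 (adjusted p = 0.0556 to 0.0871), and with the processed signal its difference was -0.08.

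Between the pool and the clone with the same shRNA3, 2 of 9 genes differed, where 10.9% of all genes did. By its brighter probe *Mat2b* was 2.39-fold higher in shRNA3T than in 3-44 (log2 difference 1.26, standard error 0.28, adjusted p by limma = 0.0111) and *Cth* was 1.63-fold lower (-0.71, standard error 0.09, adjusted p = 1.68e-04). The second *Mat2b* probe gave -0.01 (adjusted p = 0.989), and the mean over both gave 0.67 (adjusted p = 0.0354). By the brighter probe the difference was 1.04 without 3-44 replicate 1 (adjusted p = 0.0529) and 0.73 with the processed signal (adjusted p = 0.135). Between 4-18 and shRNA3T, 2 of 9 differed, where 20.5% of all genes did, and both *Mat2a* (1.01) and *Cth* (0.73, adjusted p = 4.70e-05) were higher in 4-18. The second *Mat2a* probe gave -0.17 (adjusted p = 0.792), and the mean over both probes 0.42 (adjusted p = 0.162). Both calls were lost without scaling between arrays and in the deposited values, where *Mat1a* and *Ahcy* were called instead. Over the 30 alternatives *Mat2a* by its brighter probe went down to 0.36 and *Cth* to 0.13 (highest adjusted p = 0.317 and 0.651). For *Mat1a* the difference of 4-18 from shRNA3T was -0.93 (standard error 0.34, adjusted p = 0.074), with no overlap between the 4 and the 3 arrays. It was called in 10 of 30 alternatives, over which it ran from -1.69 to -0.69.

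The genes of the reactions around the cycle were taken from 5 lists. Their counts are to be read against the shares of all genes called by the same rule, which were 11.6% higher and 12.4% lower in 4-18, 3.45% and 4.69% in 3-44, and 5.13% and 7.04% in shRNA3T. Among 8 genes of reactions next to AdoMet and homocysteine, 1 was higher and 2 lower in 4-18, 3 higher and 0 lower in 3-44, and 0 higher and 1 lower in shRNA3T. *Adk*, adenosine kinase, which clears the adenosine that *Ahcy* releases, had a log2 fold change of -1.21 in 4-18 and 0.50 in 3-44 (adjusted p by limma = 1.00e-05 and 0.0337), and 0.25 in shRNA3T (adjusted p = 0.293). Its call in 3-44 held in 17 of 30 alternatives. *Nnmt*, nicotinamide N-methyltransferase, fell by 1.13 in 4-18 and by 0.84 in shRNA3T on the log2 scale (adjusted p = 7.40e-05 and 0.00205), and was at -0.44 in 3-44 (adjusted p = 0.11). The *Nnmt* probe was well above background on 2 of 4 arrays of 4-18. Each of the 2 *Nnmt* calls held in 27 of 30 alternatives, over which the 4-18 value ran from -2.50 to -0.31 and the shRNA3T value from -1.56 to -0.72.

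The folate cycle, which supplies the methyl group used by methionine synthase, is shown by 18 genes of the array, of which 17 were well above background in at least 1 group. In shRNA3T, 1 was higher and 9 lower, where 5.13% and 7.04% of all genes were, with a median log2 fold change of -0.36. In 4-18, 2 were higher and 6 lower, where 11.6% and 12.4% of all genes were (median -0.19), and in 3-44, 2 were higher and 1 lower (median -0.07), beside medians of all genes within 0.01 of 0. *Tyms*, thymidylate synthase, fell by 1.09 in 4-18 and by 2.36 in shRNA3T on the log2 scale (adjusted p by limma = 0.00664 and 2.69e-05), and was at -0.62 in 3-44 (adjusted p = 0.194). *Aldh1l2*, the mitochondrial formyltetrahydrofolate dehydrogenase, rose in all 3 groups, by 1.21, 1.25 and 0.93 in 4-18, 3-44 and shRNA3T (adjusted p = 0.00463, 0.011 and 0.0395). Its call in shRNA3T was kept in 18 of 30 alternatives.

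Of 10 genes of choline, betaine and sarcosine oxidation, 3 were higher and 1 lower in 4-18 (11.6% and 12.4% of all genes), 1 higher and 0 lower in 3-44, and 1 higher and 2 lower in shRNA3T. *Chdh*, choline dehydrogenase, which makes the aldehyde precursor of the betaine used by *Bhmt*, rose by 2.16 in shRNA3T and by 0.80 in 4-18 (adjusted p by limma = 5.99e-06 and 0.00946), and was at -0.29 in 3-44 (adjusted p = 0.506). The *Chdh* call in shRNA3T held in all 30 alternatives and that in 4-18 in 27. *Pipox*, which oxidizes pipecolate and sarcosine, rose by 1.74 in 4-18 and by 1.07 in 3-44 (adjusted p = 0.00231 and 0.0325), and was at 0.89 in shRNA3T (adjusted p = 0.0755). Outlier-marked *Pipox* spots were not used, so fewer arrays entered the 4-18 and shRNA3T values, the fewest in 4-18. The standard errors were 0.33 (4-18), 0.27 (3-44) and 0.29 (shRNA3T). The *Pipox* call in 3-44 held in 20 of 30 alternatives.

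Of 13 genes of methionine salvage and polyamine synthesis, 2 were higher and 0 lower in 4-18 (11.6% and 12.4% of all genes), 0 higher and 1 lower in 3-44, and 0 higher and 4 lower in shRNA3T. *Odc1*, ornithine decarboxylase, fell by 1.15 in shRNA3T (adjusted p by limma = 5.74e-05) and was at -0.21 in 4-18 and -0.32 in 3-44 (adjusted p = 0.252 and 0.15). An outlier-marked *Odc1* spot in shRNA3T was not used. Of 14 genes of cysteine use, of which 10 were well above background in at least 1 group, 6 were higher and 2 lower in 4-18 (11.6% and 12.4% of all genes), 1 higher and 0 lower in 3-44, and 0 higher and 1 lower in shRNA3T. *Slc7a11*, the cystine transporter, fell by 1.03 in 4-18 and by 0.58 in shRNA3T (adjusted p = 4.01e-06 and 0.00154), and was at 0.06 in 3-44 (adjusted p = 0.826). Its 2 calls each held in 27 of 30 alternatives, over which the 4-18 value ran from -2.24 to -0.24 and the shRNA3T value from -1.08 to -0.52. *Got2*, the mitochondrial aspartate aminotransferase, rose by 1.03 in 4-18 (adjusted p = 3.87e-06) and was at 0.01 in 3-44 and 0.07 in shRNA3T (adjusted p = 0.969 and 0.817). The *Got2* value in 4-18 was 0.29 without scaling between arrays (adjusted p = 0.354).

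**Figure D3:**
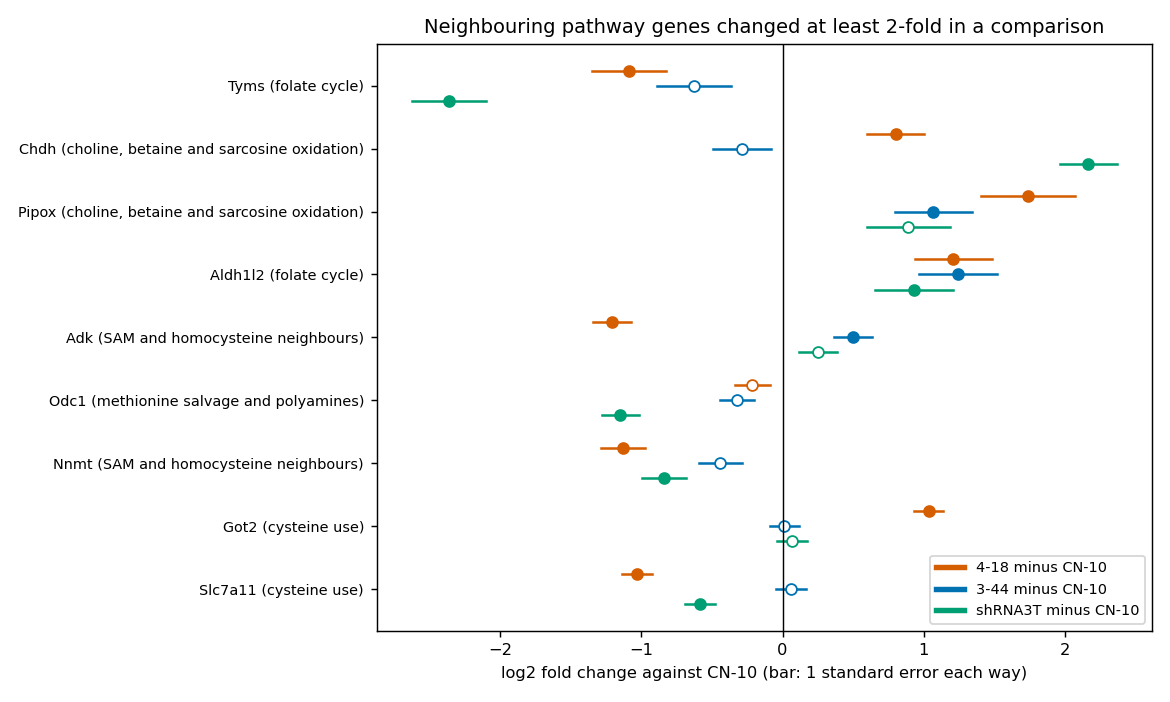
Log2 fold change against CN-10 (x axis, bars 1 standard error each way) of the 9 genes from the 5 lists (y axis) that passed the threshold at 2-fold or more in at least 1 comparison, with filled circles where the adjusted p is under 0.05. Tyms reached -2.36 and Chdh 2.16 in shRNA3T, and Adk stood at -1.21 in 4-18 against 0.50 in 3-44.

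Some of the hepatocyte lineage markers differed from CN-10 as well, and their part in these results was not tested. In 4-18, 1 of 10 was higher and 5 lower (median log2 fold change -0.48), where 11.6% and 12.4% of all genes were. In 3-44, 3 were higher and 0 lower (0.48), beside 3.45% and 4.69%, and in shRNA3T, 3 were higher and 1 lower (0.28), beside 5.13% and 7.04%. In 4-18, 3-44 and shRNA3T, 4, 2 and 3 of the 10 were called at 2-fold or more, where 6.15%, 1.47% and 2.39% of all genes were. *Ttr* rose in all 3 groups, by 2.93, 2.84 and 2.39 in that order (adjusted p by limma = 2.21e-05, 1.25e-04 and 3.19e-04). *Apoa1* was at -2.12 in 4-18 and 2.18 in 3-44 (adjusted p = 1.50e-05 and 5.47e-05), and at 0.04 in shRNA3T (adjusted p = 0.968). *Alb*, the gene of albumin, and *Hnf4a*, that of a hepatocyte transcription factor, were called in none of the 3 comparisons. The intensity summed over the markers with a value on an array ran from 218350 to 447534 in CN-10, 286735 to 447399 in 4-18, 211590 to 724965 in 3-44 and 361127 to 606801 in shRNA3T. Outlier-marked spots added nothing to these sums, among them spots of *Fgb* in 4-18, *Tf* in 3-44 and *Apob* in CN-10 and shRNA3T. The ranges therefore do not cover all 10 markers on every array.

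For the members called at 2-fold or more, the genes with the most similar profile over the arrays were listed as a description. *Tcea3*, *Fdps* and *Kif6* were closest to *Mat1a*, with Pearson correlations of 0.90, 0.90 and 0.90 over the 15 arrays that had a *Mat1a* value. *Pnisr*, *Usp30* and *RGD1565222* were closest to *Mat2b*, with 0.97, 0.93 and 0.93 over 14 arrays. The arrays in these correlations share their 4 groups and slides.

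**Figure D4:**
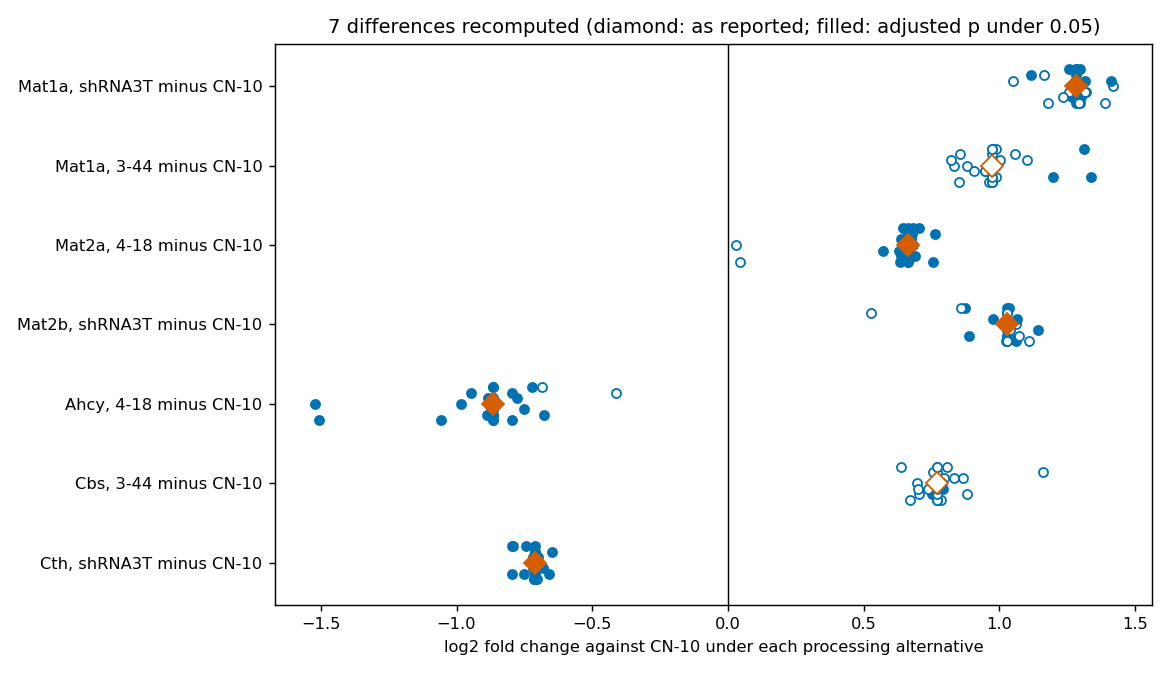
Log2 fold change against CN-10 (x axis) of 7 member differences (y axis) as reported (diamonds) and under 30 processing alternatives each (circles), filled where the adjusted p is under 0.05. The Cth fall in shRNA3T stayed between -0.80 and -0.65, and the Mat2a rise in 4-18 had 2 open circles near 0 where the arrays were not scaled to each other.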

How the data were processed

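RNA from 16 cultures (4 groups of 4) had been hybridized to 1-color Agilent rat arrays and read with Feature Extraction 10.7.3.1. Intensity values, per the file headers, were deposited as the mean signal and the median local background of each spot, beside flags for outliers and for spots well above background. The authors also deposited a table of log2 values, whose decimal points were lost and were restored here against the scanner signal (largest difference 3.99e-11), and which holds background-corrected signal not scaled between arrays. The submitters' notes and the methods name limma, whose version is not given in the sources used here.

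Here, limma 3.58.1 (R 4.3.3) was run on intensities corrected by normexp (offset 50) then log2 transformed and quantile normalized between arrays. The correction was fitted on all spots, after which 1377 control spots were left out. Outlier-marked spots were set to missing, and the 42877 gene spots were averaged into 30367 probes. A probe with several spots counted as well above background where at least a share of 0.5 of them were marked. One mean per group was fitted over the 16 arrays with empirical Bayes moderation. Where probes shared a gene name, the one with the highest mean stood for the gene, and the others are also shown. Exact permutation tests were two-sided on the difference in means. The number of arrays limits the precision.

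The members, lists and tests were chosen with earlier results of these data known. The genes named are the 9 members, *Pdrg1*, the genes of 5 lists of neighboring reactions called at 2-fold or more against CN-10 whose probe stood well above background throughout at least 1 group, and, for each member called so, the 3 genes with the highest Pearson correlation. Markers of hepatocytes and other liver cell types come from fixed lists, and those given by name were chosen after their values were seen. The fit was tested on simulated data of 29317 probes with 200 changed. It recovered 69 to 78 of 100 probes changed 2-fold and 95 to 100 of 100 changed 4-fold, over the 6 comparisons, with 6 to 11 wrong calls. The changed probes were drawn from the brighter ones, the noise was independent between arrays, and probes with a missing value were left out. The recovery therefore does not cover dim probes such as those of *Gnmt* and *Mtr*, or probes with outlier-marked spots.

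The alternatives covered the background correction, the scaling between arrays, the deposited table, dim probes, outlier spots, array weights, the groups in the fit, the replicate number as a block, the probe that stands for a gene, and each array left out in turn. Gene symbols were those of the array. One gene of the folate list is not reported here and entered none of the counts of that list.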

Additional observations from a re-analysis of the deposited data

Results flagged for a closer look

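In 3-44, replicate 1 lay apart from the other 3 arrays for 2 members. Its gap to the nearest array took up 0.834 of the range of the group for *Mat1a* (10.58 against a median of 12.09 on the others) and 0.838 for *Bhmt* (13.81 against 14.38). Of 45 groups of 4 values looked at, these 2 passed Dixon's limit, which chance passes in about 1 group in 20. The fit with array weights gave this array a weight of 0.35, beside 2.47, 2.81 and 0.65 for replicates 2 to 4 of 3-44.

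The effect against CN-10 differed between silenced groups for 4 members, by limma on the difference itself. For *Mat2a*, 4-18 exceeded 3-44 by 0.78 and shRNA3T by 1.01 on the log2 scale. For *Mat2b*, 4-18 exceeded 3-44 by 0.92 and shRNA3T exceeded 3-44 by 1.26. These values are those of the brighter probe of each gene. For the same differences the second *Mat2a* probe gave -0.10 and -0.17 and the second *Mat2b* probe -0.16 and -0.01. For *Ahcy*, the difference of 4-18 from 3-44 was -0.66. For *Cth*, the difference of shRNA3T from 3-44 was -0.71, and that of 4-18 from shRNA3T was 0.73. Each of these compares 1 clone or pool with another on separate slides, and the part of slide, clone and hairpin was not tested.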

How the results depend on the processing

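*Cth* in shRNA3T kept its call against CN-10 under every alternative that scaled the arrays to each other and without each single array, and so did *Mat2a* in 4-18 except with the mean over its probes. With the processed signal and 75th percentile scaling, 1 member was called in 4-18 against CN-10 (*Mat2a*) and 1 in shRNA3T against 3-44 (*Cth*). With 75th percentile scaling of the corrected signal, 5 members were called in 4-18 against CN-10, 1 in shRNA3T against CN-10 and 5 in 4-18 against shRNA3T. In that setting the median of all probes moved by 0.86 in 4-18 against CN-10, 0.84 against 3-44 and 0.97 against shRNA3T, and 4 values of dim probes turned sign and passed the threshold. These were *Gnmt* (1.23) and the second *Cbs* probe (1.29) in 4-18 against CN-10, the second *Cbs* probe in 4-18 against 3-44 (1.10) and *Mtr* in 4-18 against shRNA3T (1.00). Without scaling, and in the deposited table as it stands, *Ahcy* and *Bhmt* were called at 2-fold or more in 4-18 against CN-10. There, 0 members were called in shRNA3T against CN-10, 1 in 4-18 against 3-44 and 0 in shRNA3T against 3-44. In 4-18 against shRNA3T, *Mat1a* and *Ahcy* were called at 2-fold or more in both settings, and *Mat2a* and *Cth* were not called. The cause was not tested. The share of all genes called was not taken under the alternatives. The counts of members called here and below are therefore not set against it and are no result about the members.

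In 3-44 against CN-10, where 0 members were called, cyclic loess called 1 (*Cbs*), only probes well above background 1 (*Mat1a*), the 2 groups alone 1 (*Cbs*), array weights 2 (*Mat1a* and *Cbs*), and leaving out replicate 1 of every group 1 (*Mat1a*). Array weights called 6 in shRNA3T against CN-10, a count with no share of all genes under that setting beside it. With the 2 groups alone, 1 was called in 4-18 against 3-44, and without replicate 1 of every group, 1 in shRNA3T against 3-44. The mean over the probes of a gene called 1 in 4-18 against CN-10, 1 in 4-18 against 3-44 and 1 in 4-18 against shRNA3T. Leaving out single arrays, 0 to 1 members were called in 3-44 and 1 to 4 in shRNA3T against CN-10, and 1 to 2 in shRNA3T against 3-44.

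The replicate numbers were not used as pairs in the main fit, and the values here do not decide whether they pair the samples. The deviations of same-numbered arrays correlated from -0.12 to 0.48, with 14 of 24 pairs above 0.1 and 7 of 16 arrays closest to their own number. The median was 0.13 for same-numbered arrays and -0.03 for arrays of other numbers. The replicate block called 2 members in 4-18, 0 in 3-44 and 2 in shRNA3T against CN-10 (*Mat2b* and *Cth*), where *Mat1a* had a log2 fold change of 1.18 (adjusted p = 0.065). In that fit *Pdrg1* passed the threshold as lower in 4-18, 3-44 and shRNA3T (adjusted p by limma = 0.0176, 0.0108 and 0.0183), with the differences as reported above. Over all alternatives, 38, 13 and 4 of 358 values of member probes in 4-18, 3-44 and shRNA3T against CN-10 changed sign, 2 of them past the threshold. For the 9 neighboring genes and *Pdrg1* these were 0, 12 and 0 of 300, and 0 passed the threshold. Dim probes limit what can be seen, since *Gnmt* and 1 *Cbs* probe had no signal well above background.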
